A study of Mus musculus with 6 samples.

Results

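Stem and progenitor surface markers are membrane proteins by which blood-forming cells, and leukaemia cells that resemble them, are stained and sorted. The 9 genes described here are Kit, Cd34, Ly6a, Flt3, Cd48, Slamf1, Procr, Cd27 and Csf2rb. They were chosen by symbol, and all 9 were found among the 23608 rows of the table of 6 RNA-seq libraries. Of the 9 genes, 5 had enough counts to be tested, among 11614 tested genes. The libraries came from mouse leukaemia cells made with AE9a, which is a shortened AML1-ETO fusion protein. In all 6 libraries the cells were Usp18+/f UBCER-Cre, that is, 1 of their Usp18 copies was floxed, and they expressed, as do all tissues of the donor strain, a Cre that becomes active with tamoxifen. Recipient mice were injected with oil (3 libraries, genotype labelled Usp18+/f) or with tamoxifen in oil (3 libraries, genotype labelled as depleted of 1 Usp18 copy) after they had become sick. Lin- c-Kit+ GFP+ cells were sorted from their spleens 3 days after the first injection. Per the study's methods the mice were young adults of both sexes. Per the study's methods, the leukaemia was made from fetal liver cells with a retrovirus that carries AE9a and GFP, and was passed to secondary recipients. Whether all 6 recipients received cells of 1 primary leukaemia is not given in the sources used here. No group received tamoxifen without the floxed allele, so the drug and the loss of the allele cannot be told apart.

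KIT and FLT3 are receptor tyrosine kinases that bind stem cell factor and FLT3 ligand and drive the survival and growth of progenitors. CSF2RB is the beta subunit shared by the receptors for IL-3, GM-CSF and IL-5, and it signals through JAK2 and STAT5. CD34 is a sialomucin of progenitors and endothelium, LY6A (Sca-1) is a GPI-anchored protein that marks mouse stem cells and is induced by interferon, and PROCR is the endothelial protein C receptor, also found on long-term stem cells. CD48 and CD150 (encoded by Slamf1) belong to the SLAM family, whose combination separates stem cells from more committed progenitors, and CD27 is a TNF receptor family member that binds CD70.

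The 250 bases before the start of each of the 2 genes called below are shown to give the context of the genes that the main result turns on. Sequences are from RefSeq (GRCm38.p6), are read from 5′ to 3′ on the plus strand, on which both genes lie, and have capitals where a searched motif occurs. Both genes are on chromosome 1, the windows being chr1:194938571-194938820 for Cd34 and chr1:171681742-171681991 for Cd48.
Cd34: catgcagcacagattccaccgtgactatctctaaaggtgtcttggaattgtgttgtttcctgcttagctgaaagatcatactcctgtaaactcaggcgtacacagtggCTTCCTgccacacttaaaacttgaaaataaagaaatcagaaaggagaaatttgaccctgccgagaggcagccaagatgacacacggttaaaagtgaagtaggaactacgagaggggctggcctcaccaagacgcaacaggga
Cd48: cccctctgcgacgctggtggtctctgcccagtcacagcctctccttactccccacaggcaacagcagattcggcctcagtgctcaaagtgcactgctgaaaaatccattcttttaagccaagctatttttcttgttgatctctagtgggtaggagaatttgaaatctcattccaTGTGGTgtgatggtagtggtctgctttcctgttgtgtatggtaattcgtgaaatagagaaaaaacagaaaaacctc
The motifs searched on both strands were the RUNX core TGTGGT, the GATA core AGATAA, the ETS core AGGAAG, the interferon-stimulated response element (GAAA repeated after 2 further bases) and the STAT motif TTCNNNGAA. The Cd34 window held 1 match, an ETS core on the minus strand whose first base lies at position -142 from the start. The Cd48 window held 1 match, a RUNX core at position -76; this core is bound by RUNX proteins, whose DNA-binding part AML1-ETO keeps. Of 27025 promoter windows of the same length, 29.2% held the ETS core, 14.2% the RUNX core, 10.3% the GATA core, 7.18% the STAT motif and 3.04% the response element. Neither match overlapped another motif, and both are letters in the sequence, not shown to be binding sites.

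Levels are in CPM, that is, counts per 1000000 counts of the tested genes of a library after TMM scaling, and libraries are named by their numbers in the table. The libraries held between 17118964 and 20741399 counts. Tamoxifen 4 stood apart from the other 2 tamoxifen libraries. On the first principal component, which held 65.1% of the variance, the oil libraries lay between -31.1 and -23.4, tamoxifen 1 and 2 at 37.3 and 47.5, and tamoxifen 4 at -2.99. Results are therefore also given without it. The targeted gene went against its label. Usp18 was at 9.12, 11.0 and 11.2 CPM in the oil libraries against 15.1, 28.0 and 19.4 CPM in the libraries labelled tamoxifen (log2 fold change 0.998 ± 0.229 (SE), edgeR quasi-likelihood adjusted p = 0.0739). The counts are per gene, not per exon or per copy, so loss of 1 copy was not measured. Usp18 is also on the list of 24 interferon-stimulated genes used below. Directions below are therefore between the libraries labelled tamoxifen and those labelled oil.

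Of the 5 tested markers, Cd34 and Cd48 rose in the libraries labelled tamoxifen and none fell, at an adjusted p under 0.05 in edgeR's quasi-likelihood test. Over all tested genes, 1.75% were called higher and 0.267% lower. The fitted log2 fold changes of all 5 were positive. Their median of 1.86 is the value of Ly6a, a gene close to the filter, and it was 1.64 over the 4 markers with a mean of at least 50 counts and 1.02 without tamoxifen 2. The median over all tested genes was 0.00. Without tamoxifen 4 all 5 were called higher, but in that fit 19.2% of all tested genes were called higher and 17.1% lower. The calls of Cd34 and Cd48 were kept only when tamoxifen 4 was the library left out. With any of the other 5 libraries left out, none of the 5 markers was called, and between 8 and 16 genes were called higher in the whole table. In those fits 3 or 4 of the 5 markers had an unadjusted edgeR p under 0.05. So had 1373 to 1659 of the 11747 to 11861 genes tested. The markers were measured in a bulk of sorted cells, in which more cells of a type and more RNA per cell cannot be told apart.

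**Figure D1:**
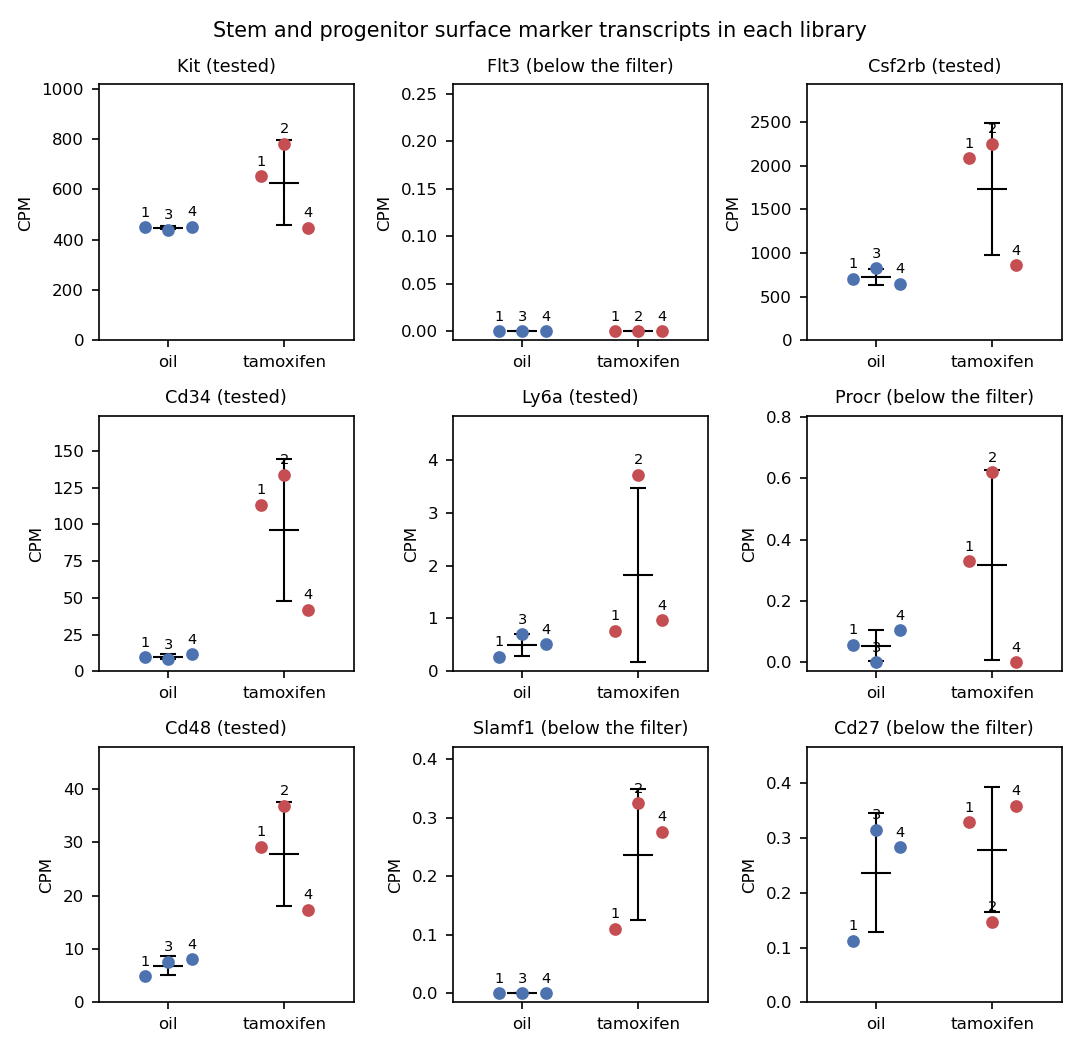
CPM of each of the 9 markers in each library, with the mean (long bar) and SD (whiskers) of the 3 oil and the 3 tamoxifen libraries and with the number of the library above each point; the vertical scale differs between panels. Cd34 and Cd48 have no overlap between groups, whereas the Kit point of tamoxifen 4 (447 CPM) lies among the oil libraries (439 to 451 CPM).

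Cd34 had the largest fitted change among the tested markers. It was at 9.68, 8.41 and 11.7 CPM in oil 1, 3 and 4 against 113, 134 and 41.8 CPM in tamoxifen 1, 2 and 4. Each tamoxifen library lay above every oil library, with tamoxifen 4 below the other 2 of its group. The mean rose from 9.94 ± 1.68 CPM (SD, n = 3) to 96.3 ± 48.3 CPM (SD, n = 3), which is 9.69-fold. In edgeR the log2 fold change was 3.27 ± 0.41 (SE, adjusted p = 0.0232). Without tamoxifen 4 it was 3.64 ± 0.13, and with any other library left out it lay between 2.97 and 3.40 and its adjusted p between 0.0577 and 0.153. Cd34 (chr1:194938819-194961279, plus strand) shares exon positions with the antisense gene Gm16897, and because the strand setting of the counting is not given in the sources used here, reads of both cannot be told apart.

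Cd48, the GPI-anchored SLAM protein of committed progenitors and most blood cells, was the other marker that rose. It was at 4.90, 7.66 and 8.13 CPM in the oil libraries against 29.1, 36.8 and 17.4 CPM in tamoxifen 1, 2 and 4. The groups did not overlap, and tamoxifen 4 was again the lowest of its group. The mean rose from 6.89 ± 1.75 CPM (SD, n = 3) to 27.8 ± 9.80 CPM (SD, n = 3), which is 4.03-fold. In edgeR the log2 fold change was 2.00 ± 0.30 (SE, adjusted p = 0.0313). It was 2.25 ± 0.20 without tamoxifen 4, and with any other library left out it lay between 1.75 and 2.13 and its adjusted p between 0.0750 and 0.181.

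Slamf1, whose product CD150 is the SLAM protein of long-term stem cells, lies close to Cd48 on chromosome 1 (chr1:171767127-171801184, with Cd48 at chr1:171682009-171705258, both on the plus strand). It had no count in any oil library and 2, 5.5 and 5 counts in tamoxifen 1, 2 and 4. A count of 0 allows up to 3 counts. Against 3 counts per oil library, its mean CPM in the tamoxifen libraries was 1.52-fold higher. That value allows for no counting error in the tamoxifen libraries and so is not a lower limit. Slamf1 was below the low-count filter and was not tested. Such counts are too few to place Slamf1 beside Cd48 in level or change. Among the 9 SLAM family genes on the list, 2 were tested, and of these Cd48 was called. Cd84, the other tested SLAM gene, was at 104 to 119 CPM in the oil libraries against 163, 204 and 110 CPM in the tamoxifen libraries (log2 fold change 0.49 ± 0.20 (SE), adjusted p = 0.225), and its groups overlapped through tamoxifen 4. Without tamoxifen 4, 3 SLAM genes were tested and all 3 were called higher, in a fit that called 19.2% of all tested genes higher. Of these, Cd244 (0 to 0.194 CPM in oil) entered that fit only through the tamoxifen libraries, in which it is higher, so its call adds nothing. With any other library left out, 0 SLAM genes were called.

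**Figure D2:**
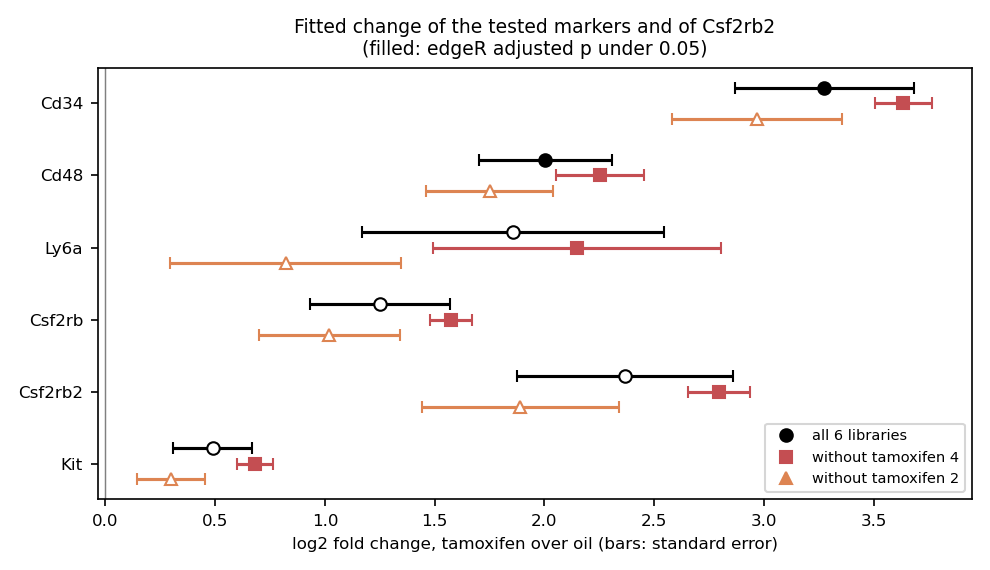
Fitted log2 fold change (horizontal axis, tamoxifen over oil, bars for the standard error) of the 5 tested markers and of Csf2rb2 with all 6 libraries (circles), without tamoxifen 4 (squares) and without tamoxifen 2 (triangles); filled symbols have an edgeR adjusted p under 0.05. All estimates are above 0, and that of Ly6a falls from 1.86 to 0.82 without tamoxifen 2.

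Kit, the receptor for stem cell factor and the antigen on which the cells were sorted, was abundant in every library. It was at 450, 439 and 451 CPM in oil 1, 3 and 4 against 651, 782 and 447 CPM in tamoxifen 1, 2 and 4. Tamoxifen 1 and 2 lay above the oil libraries, while tamoxifen 4 lay within the oil range, so that the groups overlapped. The log2 fold change was 0.49 ± 0.18 (SE), and it was not called in edgeR (adjusted p = 0.202). Without tamoxifen 4 it was 0.68 ± 0.08 and called (adjusted p = 0.000289), and without tamoxifen 2 it was 0.30. The sort on c-Kit protein bounds what Kit RNA can show, since cells that had lost the protein were not collected. Flt3, the receptor kinase of multipotent and lymphoid progenitors, had no count in any of the 6 libraries. A count of 0 allows up to 3 counts, which is 0.145 to 0.177 CPM depending on the library, and this limit covers counting error only. Its ligand gene Flt3l was transcribed in these cells, at 19.4 to 21.5 CPM in the oil libraries and 24.6, 35.2 and 22.8 CPM in the tamoxifen libraries (log2 fold change 0.45 ± 0.17 (SE), adjusted p = 0.211).

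Csf2rb was the most abundant of the 9 markers. It was at 707, 827 and 652 CPM in oil 1, 3 and 4 against 2087, 2254 and 861 CPM in tamoxifen 1, 2 and 4. Every tamoxifen library lay above the oil libraries, but tamoxifen 4 exceeded the highest oil library by little. The log2 fold change was 1.25 ± 0.32 (SE) and was not called in edgeR (adjusted p = 0.0905). It was called by the DESeq2 Wald test (1.25, adjusted p = 0.000870), by which 6.14% of all tested genes were called higher, and by edgeR with no low-count filter (1.24, adjusted p = 0.0428). Without tamoxifen 4 it was 1.58 ± 0.10. Between all 6 libraries, 4 of the 5 tested markers had groups that did not overlap, with tamoxifen higher, Kit being the exception, as against 13.3% of all tested genes. Of these 4, Ly6a passed the low-count filter mainly through the tamoxifen libraries, and its ranges nearly touched (0.703 against 0.768 CPM). Its separation therefore lends no support to this count.

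Csf2rb has a neighbouring copy, Csf2rb2, which encodes the mouse IL-3 receptor beta subunit. Csf2rb lies at chr15:78325752-78353847 on the plus strand, and Csf2rb2 at chr15:78282507-78305721 on the minus strand. Their coding sequences were 95.4% identical over 2626 aligned bases, and 7.16% of the 100-base stretches of the Csf2rb transcript occurred unaltered in Csf2rb2. Per the study's methods the reads were paired and longer than these stretches. This percentage is therefore not the share of reads that could not be assigned. A pair of stretches of 60 coding bases is shown, to let the sharing of reads be judged; they are from the GENCODE M21 transcripts (GRCm38), numbered from 1 at the start codon, with capitals where the genes differ. In bases 1 to 60 of both genes there is 1 difference.
Csf2rb: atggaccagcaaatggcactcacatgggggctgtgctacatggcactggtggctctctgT
Csf2rb2: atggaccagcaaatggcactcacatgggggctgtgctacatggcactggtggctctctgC
Bases 304 to 363 of Csf2rb and 307 to 366 of Csf2rb2 are the stretch with most differences, 13 in all.
Csf2rb: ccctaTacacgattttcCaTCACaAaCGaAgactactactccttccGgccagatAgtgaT
Csf2rb2: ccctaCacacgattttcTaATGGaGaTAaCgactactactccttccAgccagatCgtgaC
How the authors' counting divided reads between the copies is not given in the sources used here, and so both values are uncertain. Csf2rb2 was at 166, 199 and 154 CPM in the oil libraries against 1002, 1401 and 278 CPM in tamoxifen 1, 2 and 4. Its groups did not overlap, and its log2 fold change of 2.37 ± 0.49 (SE) was not called in edgeR (adjusted p = 0.0557). With the counts of both genes summed, the log2 fold change was 1.54 (adjusted p = 0.0798). The ratio of Csf2rb2 to Csf2rb counts was 0.235, 0.240 and 0.237 in the oil libraries and 0.480, 0.622 and 0.322 in tamoxifen 1, 2 and 4. This ratio hardly varied among the oil libraries, and each tamoxifen library lay above them.

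**Figure D3:**
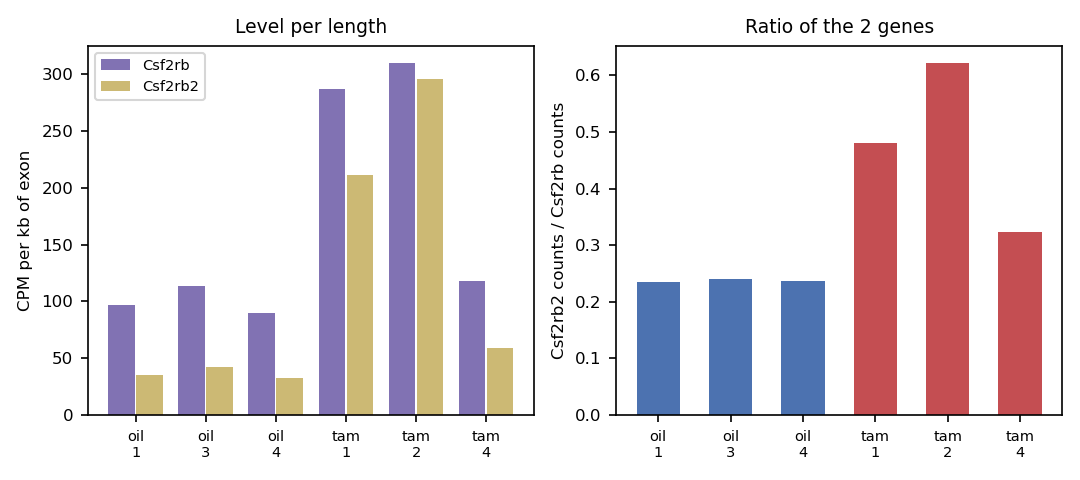
Left, level of Csf2rb and Csf2rb2 in CPM per kb of exon in each library; right, Csf2rb2 counts divided by Csf2rb counts in each library (blue, oil; red, tamoxifen, written tam; no error bars, since each bar is 1 library). The ratio is 0.235 to 0.240 in oil and 0.322 to 0.622 in tamoxifen.

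Ly6a, which encodes Sca-1, was near the limit of detection. It was at 0.281, 0.703 and 0.514 CPM in oil 1, 3 and 4 (5, 14.5 and 10 counts) against 0.768, 3.72 and 0.967 CPM in tamoxifen 1, 2 and 4 (14, 63 and 17.5 counts). The groups did not overlap, but the oil and tamoxifen ranges nearly touched, and tamoxifen 2 was far above the other 5 libraries. The log2 fold change was 1.86 ± 0.69 (SE), and it was not called in edgeR (adjusted p = 0.202). It was 0.82 without tamoxifen 2 and 2.15 (adjusted p = 0.0287) without tamoxifen 4. Ly6a passed the filter, which asks for 0.555 CPM in at least 3 libraries, through the 3 tamoxifen libraries and oil 3, so it could be tested mainly because of the group in which it was higher. The related genes Ly6c1 and Ly6c2, whose coding sequences were 79.4% and 83.5% identical to that of Ly6a, had at most 1 count in any library and shared no 100-base stretch with it. Of the 13 Ly6 family genes on the list, 4 were tested and none was called. Besides Ly6a, the largest changes were those of Ly6d (log2 fold change 0.42, adjusted p = 0.100) and Ly6e (0.17, adjusted p = 0.432), the latter being abundant at 883 to 1210 CPM in all libraries.

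Procr and Cd27 were also below the low-count filter and were not tested. Procr had 1, 0 and 2 counts in the oil libraries and 6, 10.5 and 0 counts in tamoxifen 1, 2 and 4. Its groups overlapped, since tamoxifen 4 had none. Cd27 had 2, 6.5 and 5.5 counts in the oil libraries and 6, 2.5 and 6.5 counts in the tamoxifen libraries, and no separation between groups was seen. Cd70, which encodes the CD27 ligand, and Proc, which encodes the ligand of PROCR, had no counts in any library.

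Per kb of exon, which allows genes to be compared, the level in the oil libraries was highest for Csf2rb, at 100.1 ± 12.3 CPM per kb (SD, n = 3), then Kit at 50.1 ± 0.71 CPM per kb, Cd48 at 5.80 ± 1.47 CPM per kb, Cd34 at 1.36 ± 0.23 CPM per kb and Ly6a at 0.415 ± 0.175 CPM per kb. In each of these neighbouring pairs the 3 oil values of the higher gene lay above those of the lower gene. In the tamoxifen libraries the means were 238 ± 104 for Csf2rb, 70.3 ± 18.9 for Kit, 23.4 ± 8.24 for Cd48, 13.2 ± 6.63 for Cd34 and 1.51 ± 1.37 for Ly6a, all in CPM per kb (SD, n = 3). There the SDs of Cd48 and Cd34 overlapped, and with the longest transcript as length Cd34 (31.4) lay above Cd48 (23.4). Relative to Kit, Cd34 counts were 0.0191 to 0.0260 of Kit counts in the oil libraries, and 0.174, 0.171 and 0.0936 in tamoxifen 1, 2 and 4. Cd48 counts were 0.0109 to 0.0180 of Kit counts in oil and 0.0447, 0.0471 and 0.0389 in tamoxifen. In tamoxifen 4, therefore, Cd34 and Cd48 were raised against Kit although Kit was at its oil level.

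The profiles of the markers over the 6 libraries were compared as the root mean square difference of log2 CPM, after the mean of each gene was removed. This is a description over 6 libraries that share depth and groups. Among the markers the closest pairs were Csf2rb and Kit (0.42), and Cd48 and Csf2rb (0.50), and the farthest was Cd34 and Kit (1.37). Among 9674 other genes with at least 5 CPM, the profiles nearest to Cd34 were those of Slc7a8 (0.23), an amino acid transporter, Clec4e (0.26), a C-type lectin, and Coro2a (0.33), a coronin. Those nearest to Cd48 were Svs2 (0.14), Spns3 (0.15) and Gsta3 (0.16). Nearest to Csf2rb were Tespa1 (0.10), Cul9 (0.13) and Slc35d2 (0.13), and nearest to Kit were Bin1 (0.03), Zfp263 (0.03) and Zfp27 (0.03). Among the 9675 genes compared with Ly6a, the nearest were Irf7 (0.23), an interferon-induced transcription factor, Tpsg1 (0.35), a mast cell tryptase, and Gm2a (0.44).

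Genes that work with the markers were taken from lists. Of 9 genes for ligands and binding partners, 2 were tested and none was called. Kitl, which encodes stem cell factor, had 1 count in 1 library, and Il3 had none. Of 15 partner and related cytokine receptors, 7 were tested and none was called, with a median log2 fold change of 0.34. Besides Csf2rb2, the largest changes were those of Il3ra, the IL-3 receptor alpha subunit (0.73, adjusted p = 0.340), and the thrombin receptor gene F2r (0.63, adjusted p = 0.119). Csf2ra, the GM-CSF receptor alpha subunit that pairs with the CSF2RB protein, was at 6.13 to 7.69 CPM in oil and 6.09 to 8.90 CPM in tamoxifen and did not separate the groups. Without tamoxifen 4, 2 of the 7 tested receptors were called higher and 1 was called lower, in a fit that called 19.2% of all tested genes higher and 17.1% lower.

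Of 31 other stem and progenitor surface markers, 16 were tested and 2 were called higher, with a median log2 fold change of 1.21. This median includes genes that passed the low-count filter only through the tamoxifen libraries, and it was 0.66 over the 11 with a mean of at least 50 counts. Itga2b, the CD41 integrin subunit of megakaryocytes and early progenitors, rose from 4.77 to 5.71 CPM in oil to 24.8, 51.0 and 11.7 CPM in tamoxifen 1, 2 and 4 (log2 fold change 2.51 ± 0.48 (SE), adjusted p = 0.0435). Cd53, which encodes a tetraspanin of white blood cells, gave 0.113, 0.0485 and 0.103 CPM for oil 1, 3 and 4 against 1.02, 6.47 and 1.44 CPM for tamoxifen 1, 2 and 4 (adjusted p = 0.0464), with no more than 2 counts in any oil library. It passed the low-count filter only through the tamoxifen libraries, in which it is higher, so its call adds nothing to the count of the list. Cd93, a lectin-like receptor of stem cells and endothelium, was at 0 to 0.360 CPM in oil and 1.98, 3.34 and 0.746 CPM in tamoxifen (adjusted p = 0.0866), and it too passed the filter only through the tamoxifen libraries. Without tamoxifen 4, in the fit that called 19.2% of all tested genes higher, 17 of the list were tested, and 14 were called higher and none lower. Among those called, Cd53, Cd93 and Cd244 entered that fit only through the tamoxifen libraries. With any of the other 5 libraries left out, 0 of the list were called, as with limma-voom or a mean of at least 50 counts.

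Of 24 receptor signalling components, 22 were tested and 1 was called higher, with a median of 0.13. This was Gab2, an adaptor of KIT and cytokine receptor signalling, at 159 to 168 CPM in oil and 350, 312 and 243 CPM in tamoxifen (log2 fold change 0.89 ± 0.13 (SE), adjusted p = 0.0307). The kinase gene Fes had a larger fitted change (1.07, adjusted p = 0.151) and the ubiquitin ligase gene Cblb a smaller one (0.67, adjusted p = 0.0528), and neither was called. Of 23 target and feedback genes of these receptors, 16 were tested and 2 were called higher, with a median of 0.34. Spred1, an inhibitor of RAS signalling downstream of KIT, rose from 23.8 to 35.3 CPM in oil to 63.1, 84.4 and 55.7 CPM in tamoxifen (log2 fold change 1.12 ± 0.20 (SE), adjusted p = 0.0399). Socs1, an inhibitor of JAK kinases that interferon also induces, rose from 35.7 to 42.3 CPM to 86.9, 117 and 60.2 CPM (1.14 ± 0.22 (SE), adjusted p = 0.0438). The largest change there was that of Bcl2 (1.75, adjusted p = 0.175). The fit without tamoxifen 4 called 19.2% of all tested genes higher and 17.1% lower. In it, 11 of 22 signalling genes and 10 of 17 target genes were called higher, and 1 target gene was called lower. With any of the other 5 libraries left out, 0 of either list were called.

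**Figure D4:**
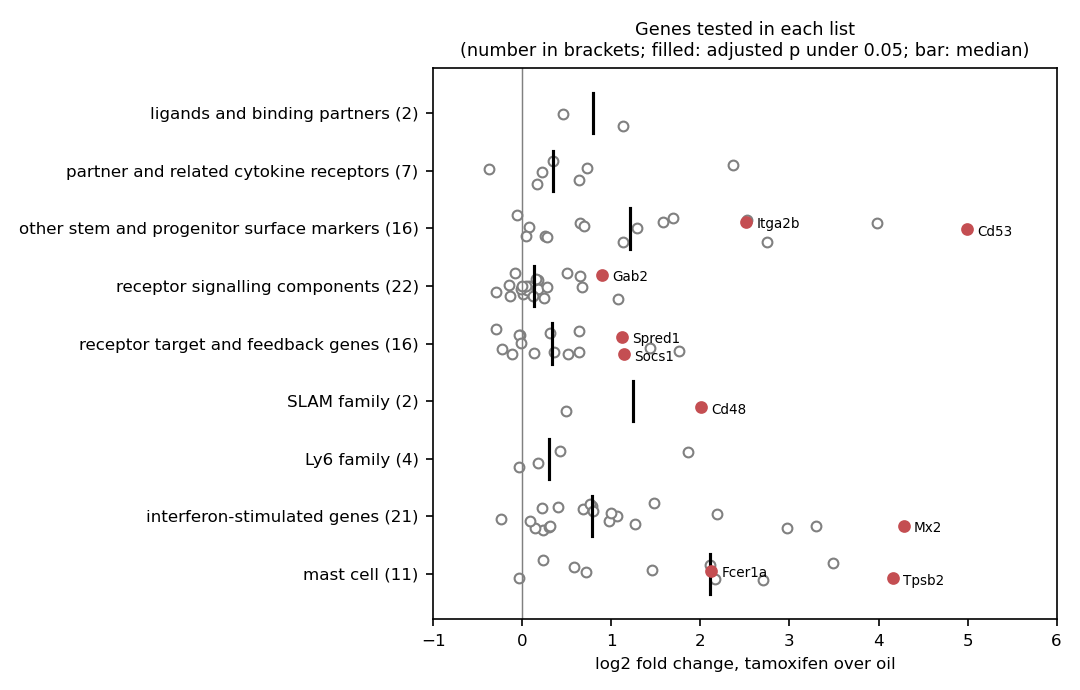
Fitted log2 fold change (horizontal axis, tamoxifen over oil, all 6 libraries) of each tested gene of the 9 lists shown (vertical axis, tested genes in brackets), with red filled points for an edgeR adjusted p under 0.05 and a black bar for the median of the list. The medians of the lists shown run from 0.13 for signalling components to 2.11 for mast cell markers; the points of Cd53, Mx2 and Tpsb2 are of genes that entered the test only through the tamoxifen libraries.

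Interferon-stimulated genes, markers of other cells and the antigens of the sort gate were measured beside the markers. Of 24 interferon-stimulated genes, 21 were tested, 20 had a positive log2 fold change and 1 was called higher, with a median of 0.78. That gene was Mx2, at 0 to 0.194 CPM in oil and 1.21, 3.45 and 1.80 CPM in tamoxifen (adjusted p = 0.0399), and the next largest changes were those of Rsad2 (adjusted p = 0.109) and Mx1 (adjusted p = 0.108). All 3 passed the low-count filter only through the tamoxifen libraries, so the call of Mx2 lends no support to a change of the list. The summed level of the list was 756 to 871 CPM in oil and 870, 1377 and 1041 CPM in tamoxifen 1, 2 and 4. Mast cells carry KIT, CD34 and the IL-3 receptor on their surface. Of 11 mast cell markers, all 11 were tested, 10 had a positive log2 fold change and 2 were called higher, Fcer1a (2.12, adjusted p = 0.0381) and Tpsb2 (0.113 to 0.315 CPM in oil and 2.00, 8.92 and 2.43 CPM in tamoxifen, adjusted p = 0.0402). Of these, Tpsb2 passed the filter only through the tamoxifen libraries. The summed level of the mast cell markers was 2944 to 3147 CPM in oil and 4940, 7681 and 3704 CPM in tamoxifen 1, 2 and 4. In oil and in tamoxifen 4 its largest parts were Hdc and Ms4a2. Hdc was at 1194 CPM in tamoxifen 4 (1058 to 1210 CPM in oil) and Ms4a2 at 854 CPM (862 to 917 CPM in oil). Mcpt4 also lay within its oil range there. In tamoxifen 4 the other mast cell markers lay above every oil library. Among them were Cma1 (557 against 241 to 318 CPM) and Cpa3 (294 against 113 to 156 CPM). Cd34, Cd48, Kit and Csf2rb had the same order of tamoxifen libraries as the mast cell sum, but this order was not particular to mast cell markers. The first principal component had it, as did the summed erythroid and megakaryocyte markers (6881, 7032 and 4428 CPM) and macrophage and dendritic cell markers (9.19, 12.7 and 6.52 CPM). The interferon-stimulated sum did not. None of the 11 mast cell markers was at 0, and the largest change without a call was that of Mrgprb2 (3.48, adjusted p = 0.0897). Of 6 basophil markers, 1 was called higher, and this was Fcer1a, which is on both lists. The next largest there were Mcpt8 (2.05, adjusted p = 0.131) and Prss34 (1.09, adjusted p = 0.309). The part that mast cell transcripts have in the marker results was not tested.

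**Figure D5:**
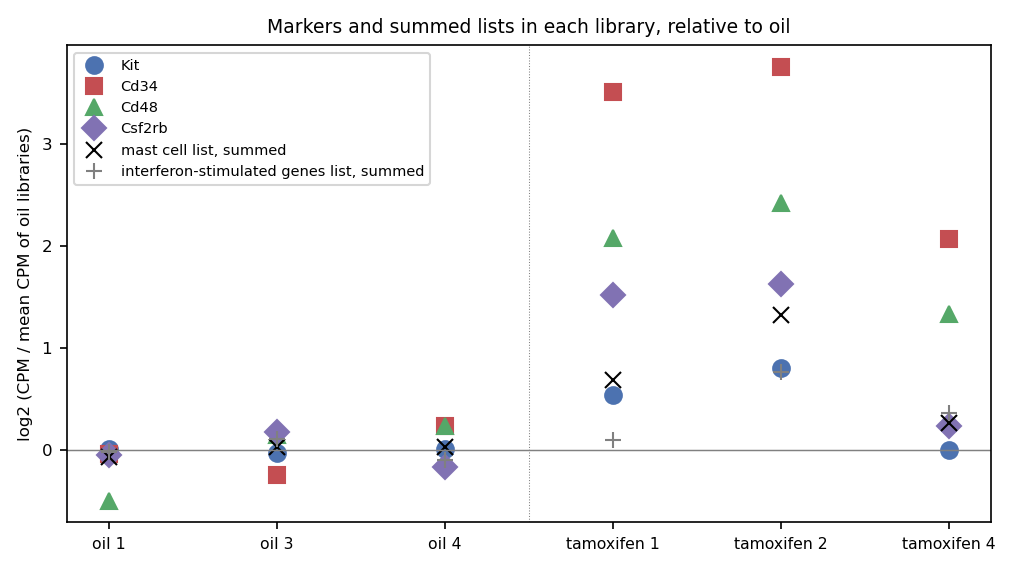
CPM of Kit, Cd34, Cd48 and Csf2rb and the summed CPM of the mast cell and interferon-stimulated gene lists in each library, as log2 of the ratio to the mean of the oil libraries (vertical axis). In tamoxifen 4, Cd34 (2.07) and Cd48 (1.33) stay above oil, while Kit (0.00), Csf2rb (0.24) and the mast cell sum (0.27) lie near it. That sum is weighted to Hdc and Ms4a2, and most single mast cell markers stay above oil in tamoxifen 4.

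The defining endothelial genes Cdh5, Emcn and Cldn5 had no counts in any library, and 2 of the 8 endothelial markers were tested, with neither called, namely Vwf (0.40, adjusted p = 0.20) and Egfl7 (-0.21, adjusted p = 0.236). Summed B cell markers did not exceed 0.878 CPM and neutrophil markers 1.15 CPM in any library, and 6 of 8 T and NK cell markers had no counts. Macrophage and dendritic cell markers summed to 3.83 to 7.54 CPM in oil and 9.19, 12.7 and 6.52 CPM in tamoxifen 1, 2 and 4, with 6 of 11 tested and none called. The largest changes among them were those of Vcam1 (1.86, adjusted p = 0.0696), C1qa (1.20, adjusted p = 0.327) and Cd68 (0.97, adjusted p = 0.189). As to the lineage antigens of the gate, Cd3e, Cd8a and Ly6g had no counts, and Itgam did not exceed 0.635 CPM. Ptprc, which encodes the pan-leukocyte antigen CD45, did not exceed 0.679 CPM in any library.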

How the data were processed

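RNA was measured in 3 oil and 3 tamoxifen libraries, all titled as 1 batch. The values deposited by the authors are estimated counts for each gene symbol, made from paired-end reads. STAR, DESeq2 and the build mm10 are named in the submitters' processing notes, while the counter, strand setting and annotation are not given in the sources used here. The counts were not scaled, and from 25.9% to 27.3% of a library's values had a decimal part. They were rounded before testing. Table columns number the libraries oil 1, 3 and 4 and tamoxifen 1, 2 and 4, whereas sample titles number them oil 1, 2 and 4 and tamoxifen 1, 3 and 4; columns without a matching title (oil 3, tamoxifen 2) were used as replicates of their group. For 26 rows the symbol had become a date.

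Counts were tested in R 4.3.3 with edgeR 4.0.16 (filterByExpr by group, TMM, quasi-likelihood F test), with Benjamini-Hochberg adjustment over 11614 genes and calls at an adjusted p under 0.05. Log2 CPM used a prior count of 2. Alternatives were DESeq2 size factors, upper-quartile scaling, the DESeq2 1.42.0 Wald test, limma-voom (limma 3.58.1), no filter, a replicate block, a mean of at least 50 counts, leaving out each library, Csf2rb summed with Csf2rb2, and the longest transcript as length. Lengths and coordinates were from GENCODE M21 (GRCm38, the same assembly as mm10), and promoter windows from RefSeq, which were found for 7 of the 9 markers. The scripts were tested on simulated data. Limits on counts of 0 cover counting error only, because no molecular identifiers separate molecules from PCR copies. Per the labels the samples are biological replicates. No pair within a group was a repeated library (chi-square per degree of freedom at least 7.14), and pairs between groups were not compared.

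The markers, the gene lists and the naming rule were chosen with earlier results of these data known. Named are the 9 markers, Usp18, of each list the called genes and, up to 3 in all, those with the largest absolute change, for each tested marker the 3 genes with the nearest profile, and near-identical copies. Other genes (Kitl, Il3, Cd70, Proc, Csf2ra, Cd244, Hdc, Ms4a2, Mcpt4, Cma1, Cpa3, the sort antigens, endothelial genes at 0) were named after their values were seen. List symbols found in the table were 208 of 211. Results of some listed genes are not reported here.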

Additional observations from a re-analysis of the deposited data

How the results depend on the processing

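No result changed direction under any alternative. With DESeq2 size factors or upper-quartile scaling in edgeR every marker kept its side of the threshold, and upper-quartile scaling called 2 genes each among signalling components and interferon-stimulated genes. The DESeq2 Wald test called Csf2rb (1.25), Usp18 (1.0) and Csf2rb2 (2.37), and 713 genes higher and 231 lower. Called higher on the lists were 2 partner receptors, 8 other surface markers, 4 signalling components, 6 target genes, 1 Ly6 gene and 10 interferon-stimulated genes. It called 1 partner receptor lower, Epor (-0.37, DESeq2 adjusted p = 0.00708). With limma-voom Cd34 (3.12, adjusted p = 0.0545) and Cd48 (1.95, adjusted p = 0.0566) were no longer called, so that 0 markers were called. An unadjusted limma-voom p under 0.05 was found for 4 of the 5 markers and for 2345 of 11614 tested genes. That fit called 48 genes higher and 6 lower, and 0 other surface markers, target genes, SLAM genes and interferon-stimulated genes. With no low-count filter, Csf2rb (1.24), Usp18 (0.99) and Csf2rb2 (2.36) were called, with 372 genes higher, 61 lower, 1 partner receptor, 5 other surface markers, 3 signalling components and 6 interferon-stimulated genes. A mean of at least 50 counts left 17 genes lower, 0 other surface markers, 1 target gene and 0 interferon-stimulated genes, and it removed Ly6a. The cause of these differences was not tested.

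The replicate block was fitted although numbers 1 and 4 only are shared between groups. Deviations of the libraries with these numbers from their group means correlated at -0.13 and 0.06. Such pairs are too few to show whether the samples share more than a number. The block left 1 residual degree of freedom and called Csf2rb (0.98) and Csf2rb2 (1.72), 1 partner receptor and 5 interferon-stimulated genes, with 3 markers called and Kit at 0.26. Over all 11614 tested genes, it called 215 higher and 26 lower.

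Leaving out 1 library gave log2 fold changes of 0.30 to 0.68 for Kit, 2.97 to 3.64 for Cd34, 0.82 to 2.23 for Ly6a, 1.75 to 2.25 for Cd48, 1.02 to 1.58 for Csf2rb, 1.89 to 2.80 for Csf2rb2 and 0.73 to 1.18 for Usp18. Called were 0 to 5 markers, 8 to 2278 genes higher and 0 to 2024 lower, 0 to 3 ligands and SLAM genes, 0 to 2 partner receptors and Ly6 genes, 0 to 14 other surface markers and interferon-stimulated genes, 0 to 11 signalling components and 0 to 10 target genes. The upper end of each range of calls is the fit without tamoxifen 4, and fits without any of the other 5 libraries called 0 markers, with 2 libraries left in 1 group.

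With the longest transcript as length, oil levels were 85.2 for Kit, 3.25 for Cd34 and 149 CPM per kb for Csf2rb, and the order of the markers in oil was kept, while in tamoxifen Cd34 (31.4) came to lie above Cd48 (23.4). Slamf1, Procr and Cd27 had at most 10.5 counts in any library and Flt3 none, which limits what can be said of them. With no low-count filter, 8 markers entered the fit, 6 had an unadjusted edgeR p under 0.05 and 3 were called. Among all 15356 genes of that fit, 2858 had such a p and 372 were called higher.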

Other observations

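Erythroid and megakaryocyte markers were measured at a summed level of 4954 to 6094 CPM in the oil libraries and 6881, 7032 and 4428 CPM in tamoxifen 1, 2 and 4, and the groups overlapped. Of 11 listed, 9 were tested, and Itga2b was called higher. The erythropoietin receptor gene Epor, at 75.0 to 77.3 CPM in oil and 60.8, 54.6 and 61.4 CPM in tamoxifen, was not called in edgeR (-0.37 on the log2 scale, adjusted p = 0.0723). It was called lower by the DESeq2 Wald test (adjusted p = 0.00708). Alas2, an enzyme of haem synthesis, was not called in edgeR (0.71 on the log2 scale, adjusted p = 0.427). Epor was named after its values were seen.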
